A study of Rattus norvegicus with 20 samples.

Results

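Neurotrophin signalling in the dentate gyrus was followed through 6 genes, the ligands Bdnf and Ntf3, the receptor tyrosine kinases Ntrk2 (TrkB) and Ntrk3 (TrkC), the p75 receptor Ngfr and the sorting receptor Sort1 (sortilin). The genes were chosen by name, and each was read at the probe set annotated to it alone with the highest mean over the 20 arrays. Each of the 6 had 1 such probe set, out of 17245 genes with a single-gene probe set, of which 14586 were tested. All 6 passed the filter on low values, and none was at or below the background (a log2 intensity of 3.69) in any array. In RefSeq (GRCr8) Bdnf lies on chromosome 3, Ntf3 on 4, Ntrk2 on 17, Ntrk3 on 1, Ngfr on 10 and Sort1 on 2.

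The rats were adult male Sprague-Dawley rats in 4 groups of 5, with 1 array per rat. In stimulated rats an electrode in the left amygdala was used to evoke status epilepticus (SE), which was stopped with diazepam, and the left dentate gyrus was taken 7 d or 30 d later. Sham-operated rats, taken at the same times, carried the electrodes and were not stimulated. The deposited value is a log2 intensity per probe set and array, so differences are on the log2 scale. Levels of different probe sets were set against each other only to say which lay near the background. Linear intensities were summed over marker lists, where the brightest probe sets weigh most. The arrays had similar medians (5.22 to 5.31) and correlated at 0.9715 to 0.9977 pairwise, and the mean correlation with the own group was lowest in stimulated replicate 5 at 7 d (0.9902) and sham-operated replicate 3 at 30 d (0.9915). The 3 arrays with the highest Wfs1, a marker of neighbouring CA1 cells, were all from 30 d, and the changes of the 6 genes at 30 d are also given without them.

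Neurotrophins are secreted growth factors that are made as longer precursors. The mature forms act through Trk receptors, BDNF mainly through TrkB and NT-3, the product of Ntf3, mainly through TrkC, whereas the precursors bind p75 together with sortilin. BDNF mRNA is well known to be induced by neuronal activity and seizures in hippocampal neurons, and NT-3 mRNA in the adult rat hippocampus is found mainly in dentate granule cells. Much of the TrkB of astrocytes is a form without the kinase domain. A single probe set value per gene cannot tell full-length from truncated receptors, nor transcripts that start at different promoters.

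Bdnf is transcribed from several alternative start sites, and RefSeq start sites on GRCr8 gave 6 promoter windows of 300 bases, most of each lying before the start. They are shown because Bdnf was the member that passed the test between stimulated and sham-operated rats. The windows were searched on both strands for the cAMP response element, spelled TGACGTCA, for a shorter form of it, spelled TGACGTG on one strand and CACGTCA on the other, and for the E-box, spelled CACGTG. The shorter form and the E-box share several letters, and in Bdnf they were found in different windows. Of the 6 windows, 1 held the shorter element, 37 bases before the start, and another held an E-box that begins at base 20 of the transcript. The 250 bases before the start of the fourth window (GRCr8, plus strand, chr3:116637608-116637857), with the element in capitals, and the 30 bases around the E-box of the second window (chr3:116620842-116620871, plus strand), with the E-box in capitals, read
Bdnf window 4: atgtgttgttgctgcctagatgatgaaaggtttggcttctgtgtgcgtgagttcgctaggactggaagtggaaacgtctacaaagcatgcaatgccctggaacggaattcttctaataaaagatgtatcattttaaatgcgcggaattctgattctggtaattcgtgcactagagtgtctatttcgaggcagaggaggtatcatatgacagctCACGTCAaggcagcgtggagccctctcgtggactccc
Bdnf window 2: caaagccatccgCACGTGacaaaacgtaag
Over all 33469 RefSeq windows of 300 bases, 1.81% held the shorter element, 1.83% the longer form and 6.42% the E-box. The 3 windows of Ntf3 and the single window of Sort1 held none of these letters. The windows of Ntrk2, Ntrk3 and Ngfr were not analysed here. A match is a description of the letters, and the array values do not bear on which start was used.

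The first question was whether the ligands and receptors differed between stimulated rats and their time-matched sham-operated controls. At 7 d Bdnf rose 1.25-fold, the only member past an adjusted p of 0.05 (limma, Benjamini-Hochberg over 15800 probe sets). Ntf3 had lower means at both times with wide spread, and the receptors differed by less than 10% at either time. So 1 of 6 members passed the threshold at 7 d, when 6.48% of all probe sets did, and 0 of 6 at 30 d, when 1.73% did. At an unadjusted p under 0.05, 2 of 6 passed at 7 d (Bdnf higher, Ntrk2 lower) and 2 of 6 at 30 d (Bdnf higher, Ntf3 lower), against 18.4% and 11.4% of all probe sets. The groups did not overlap for 1 of 6 members at each time, Bdnf at 7 d and Ntrk3 at 30 d, and this was so for 6.25% of all probe sets at 7 d and for 4.27% at 30 d.

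**Figure D1:**
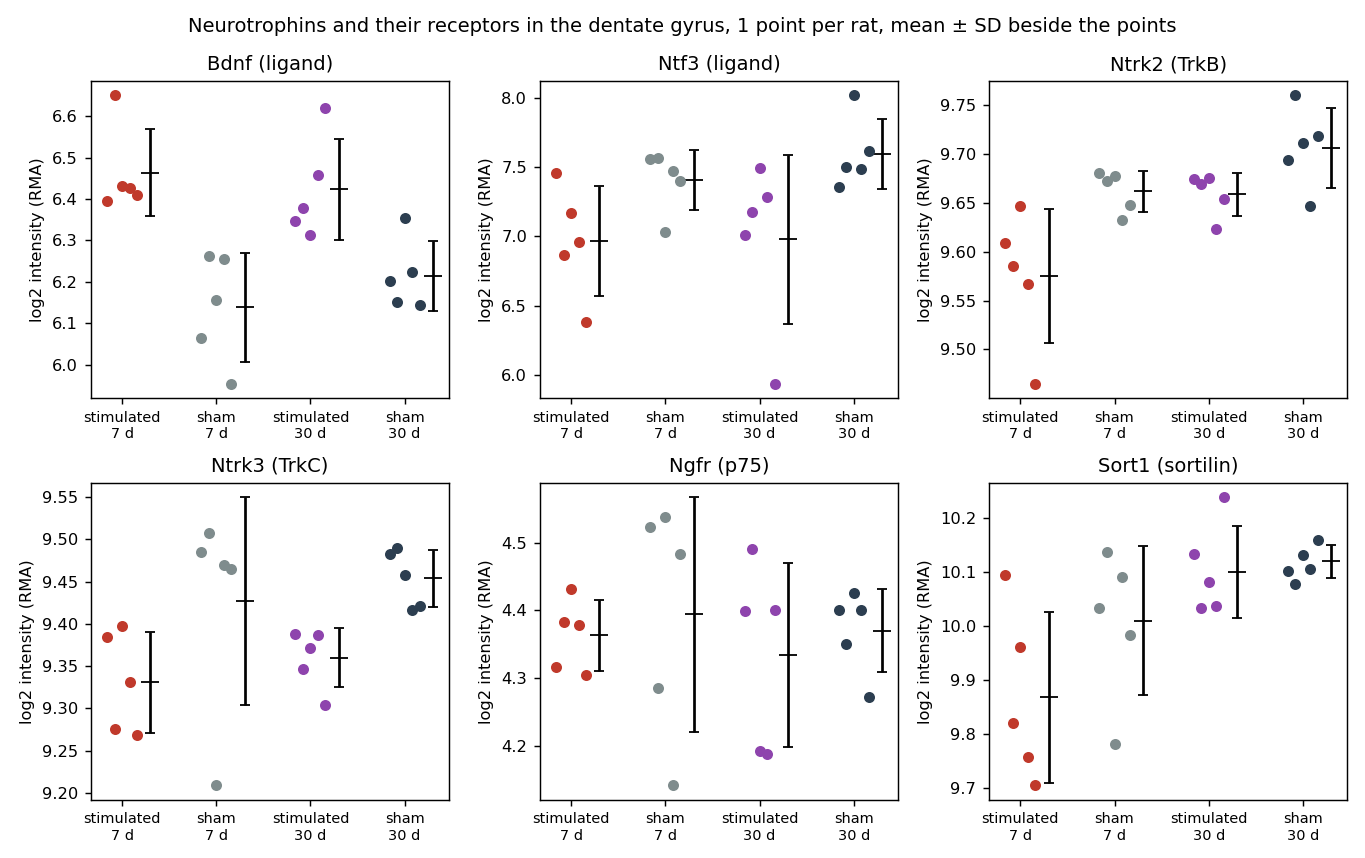
Log2 intensity of the 6 genes in every rat (1 point per rat, 5 per group), with the stimulated group left of its sham-operated control at 7 d and at 30 d and the group mean ± SD beside the points. All 5 stimulated rats lie above all 5 sham-operated rats for Bdnf at 7 d, and 1 stimulated rat at 30 d has the lowest Ntf3 value of all, 5.94.

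Bdnf, which encodes brain-derived neurotrophic factor and was read at probe set 10852620, had log2 intensities of 6.40, 6.65, 6.43, 6.43 and 6.41 in stimulated rats at 7 d, against 6.06, 6.26, 6.16, 6.26 and 5.95 in sham-operated rats. The lowest stimulated rat lay above the highest sham-operated rat, and replicate 2 stood above the other stimulated rats, which lay close together. The mean was 6.46 ± 0.11 in stimulated rats and 6.14 ± 0.13 in sham-operated rats (SD, n = 5 each). The change was 0.32 (SE 0.07, 95% confidence interval 0.18 to 0.47), a fold of 1.25, with an adjusted p of 0.00603 in limma. It ranked 370 by p among the probe sets tested. Bdnf is in a list of targets that the study chose on these rats, so this rise is not independent evidence of its direction.

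At 30 d Bdnf had log2 intensities of 6.35, 6.38, 6.31, 6.46 and 6.62 in stimulated rats, against 6.20, 6.15, 6.35, 6.22 and 6.14 in sham-operated rats. The groups overlapped through sham-operated replicate 3, which lay above 2 stimulated rats. The means were 6.42 ± 0.12 in stimulated rats and 6.22 ± 0.08 in sham-operated rats (SD, n = 5 each). The change of 0.21 (SE 0.07, interval 0.06 to 0.35, a fold of 1.15) did not pass, with an adjusted p of 0.172 in limma. The change at 30 d minus that at 7 d was -0.12 (interval -0.32 to 0.09, adjusted p = 1 in limma), so a difference between the times was not shown.

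The 2 controls shared no rats, and the groups can also be crossed. Stimulated rats at 30 d exceeded sham-operated rats at 7 d in Bdnf by 0.28 (adjusted p = 0.0171 in limma), and stimulated rats at 7 d exceeded sham-operated rats at 30 d by 0.25 (adjusted p = 0.0154 in limma), in both cases without overlap. These comparisons mix time with stimulation and reuse the same 4 groups, so they are no independent support.

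Ntf3, which encodes neurotrophin-3 (probe set 10865724), had log2 intensities of 7.45, 6.86, 7.17, 6.96 and 6.39 in stimulated rats at 7 d, against 7.56, 7.56, 7.03, 7.47 and 7.40 in sham-operated rats. Stimulated replicate 5 was lowest, stimulated replicate 1 lay among the controls, and sham-operated replicate 3 lay among the stimulated rats. The mean was 6.97 ± 0.40 in stimulated rats and 7.40 ± 0.22 in sham-operated rats (SD, n = 5 each). The change of -0.44 (SE 0.22, interval -0.90 to 0.02) did not pass, with an adjusted p of 0.297 in limma.

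At 30 d Ntf3 had log2 intensities of 7.01, 7.18, 7.49, 7.28 and 5.94 in stimulated rats, against 7.35, 7.50, 8.02, 7.49 and 7.61 in sham-operated rats. Replicate 5 of the stimulated rats was again far below the others, and replicate 3 overlapped the controls. The means were 6.98 ± 0.61 in stimulated rats and 7.59 ± 0.25 in sham-operated rats (SD, n = 5 each). The change was -0.61 (SE 0.22, interval -1.07 to -0.15), a fold of 0.654, with an adjusted p of 0.224 in limma. Without stimulated replicate 5 it was -0.35 (adjusted p = 0.474). The change at 30 d minus that at 7 d was -0.18 (interval -0.83 to 0.48, adjusted p = 1 in limma).

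**Figure D2:**
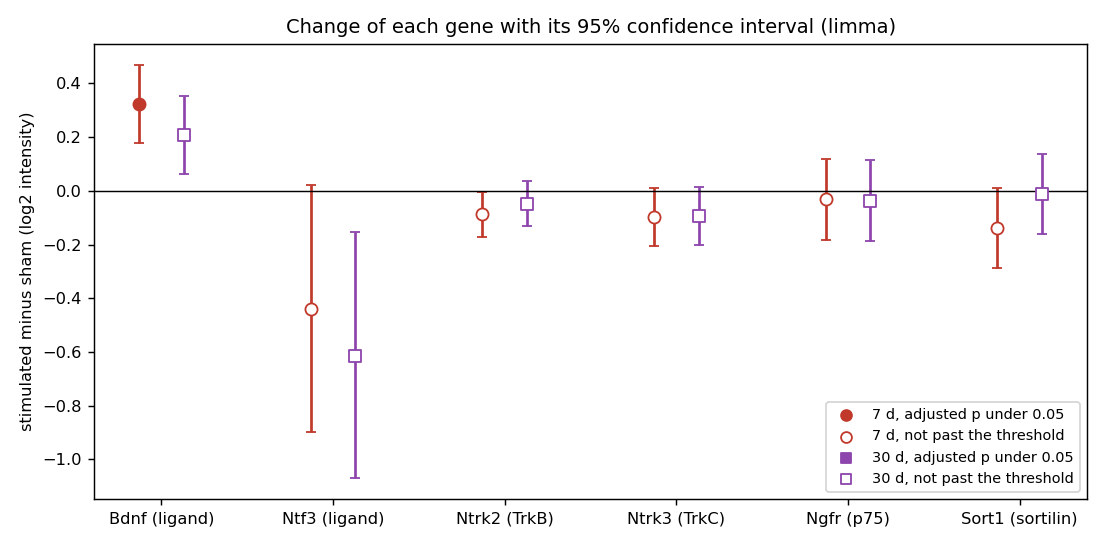
Change of each gene in log2 intensity, stimulated minus sham-operated rats, at 7 d (circles) and 30 d (squares) with 95% confidence intervals from limma (5 rats per group); filled symbols passed an adjusted p of 0.05. Only Bdnf at 7 d, 0.32, is filled, and the intervals of Ntf3 are the widest.

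Low Ntf3 values were found in rats with a low sum of granule cell markers. Over all probe sets 6.48% passed at 7 d and 1.73% at 30 d. Of 12 granule cell markers 11 were measured, and 3 of these were lower in stimulated rats at 7 d and 2 at 30 d, with none higher. Their summed linear intensity lay between 3730 and 4360 in stimulated rats at 7 d, against 4410 to 5040 in their controls. At 30 d the stimulated rats had sums of 3680 to 4680, against 4630 to 5150 in their controls. The rats with the lowest Ntf3 had the lowest sums, 3731 in stimulated replicate 5 at 7 d and 3681 in stimulated replicate 5 at 30 d. Single markers differed in these rats. C1ql2 was the lowest of its group in both, with log2 intensities of 8.81 at 7 d and 8.74 at 30 d. Prox1 was 9.64 at 7 d, the highest of its group, and 9.47 at 30 d, within the range of its group. The same 2 rats had the highest Ttr, a choroid plexus marker, with log2 intensities of 6.617 at 7 d and 6.641 at 30 d. Summed interneuron markers were 4223 in stimulated replicate 5 at 30 d, the highest of its group, and 2933 in stimulated replicate 5 at 7 d, the lowest of its group. In bulk tissue, fewer cells of a type, less RNA per cell and more neighbouring tissue in the dissection cannot be told apart.

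Over the 20 rats, deviations of Ntf3 from the group means ran with those of the summed granule cell markers on a log2 scale (Pearson r = 0.849, Spearman rho = 0.737). Those of Bdnf did not (r = -0.0139, rho = 0.0782). With deviations of Wfs1, those of Bdnf had r = 0.263 (rho = 0.359) and those of Ntf3 r = -0.65 (rho = -0.528). These coefficients are descriptions over arrays that share their normalization, and no p is given. With the summed granule cell markers as a covariate, an alternative chosen after seeing the data, the change of Ntf3 was 0.18 at 7 d (adjusted p = 0.777 in limma) and -0.06 at 30 d (adjusted p = 0.951). That of Bdnf was 0.32 at 7 d (adjusted p = 0.0749), about as large as without the covariate but no longer past the threshold. The summed markers were themselves lower in stimulated rats at 7 d, without overlap, so this fit had few rats at matching levels. It cannot separate a change of Ntf3 or Bdnf from that of the markers. Over all probe sets at 7 d, 148 were higher and 71 lower with the covariate, against 635 and 389 without it.

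Wfs1, the CA1 pyramidal cell marker, was highest in the rat with the lowest Ntf3. It had log2 intensities of 7.04, 7.29, 7.54, 7.28 and 8.14 in stimulated rats at 7 d, against 7.38, 7.08, 7.79, 7.12 and 7.01 in sham-operated rats. At 30 d it had 7.37, 7.17, 7.30, 8.64 and 9.25 in stimulated rats, against 7.51, 8.81, 7.27, 7.27 and 7.28 in sham-operated rats. High values were thus seen in replicate 5 of both stimulated groups, in stimulated replicate 4 at 30 d and in sham-operated replicate 2 at 30 d. High Wfs1 did not always go with low Ntf3. Stimulated replicate 4 at 30 d had an Ntf3 of 7.285 (group mean 6.981), and sham-operated replicate 2 at 30 d had 7.503 (group mean 7.595). Of 9 CA1 markers 7 were measured and 0 passed the threshold at either time in limma, with 1 at an unadjusted p under 0.05 each time. The summed linear intensity of these 7 was 472 to 675 in stimulated rats at 7 d, against 437 to 649 in their controls. The sums at 30 d were 486 to 1300 in stimulated rats, against 448 to 875 in their controls. Without the 3 arrays of highest Wfs1, all at 30 d, the change at 30 d was -0.39 for Ntf3 (adjusted p = 0.524) and 0.12 for Bdnf (adjusted p = 0.708). The receptors then had -0.02 for Ntrk2 (adjusted p = 0.957), -0.08 for Ntrk3 (adjusted p = 0.8), -0.015 for Ngfr (adjusted p = 0.986) and -0.04 for Sort1 (adjusted p = 0.947), so no member passed in either case.

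**Figure D3:**
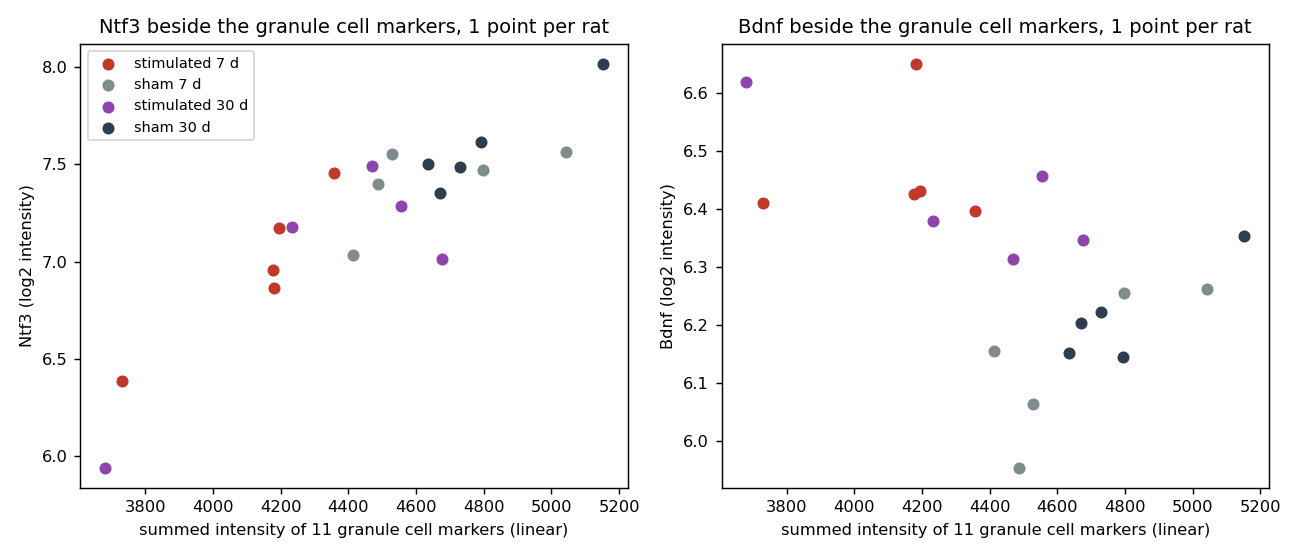
Log2 intensity of Ntf3 (left) and Bdnf (right) against the summed linear intensity of the 11 measured granule cell markers, 1 point per rat, coloured by group with each stimulated group listed before its control. The 2 rats with sums of 3731 and 3681 have the 2 lowest Ntf3 values, whereas their Bdnf values, 6.41 and 6.62, lie among those of the other stimulated rats or above them.

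Markers of microglia moved as well. Of 11 measured microglial markers 10 were higher in stimulated rats at 7 d and 5 at 30 d, with none lower. Their summed linear intensity was 2170 to 3960 in stimulated rats at 7 d, against 1430 to 1580 in their controls. The sums at 30 d were 1770 to 3430 in stimulated rats, against 1460 to 1820 in their controls. Of 11 measured astrocyte markers 2 were higher at 7 d and 1 at 30 d, and of 12 interneuron markers 1 was lower at 7 d and 0 passed at 30 d (5 at an unadjusted p under 0.05 in limma). Of 6 markers of newborn neurons 2 were higher and 2 lower at 7 d, and 1 was higher and 1 lower at 30 d. These marker counts stand beside 6.48% of all probe sets that passed at 7 d and 1.73% at 30 d. The part of these cell types, microglia among them, in the changes of the 6 genes was not tested. For Trk receptors, ligands and p75 alike, the cell type that carried a value cannot be read from the tissue.

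Ntrk2, the receptor tyrosine kinase for BDNF (probe set 10797089), had log2 intensities of 9.61, 9.59, 9.65, 9.57 and 9.46 in stimulated rats at 7 d, against 9.68, 9.67, 9.68, 9.63 and 9.65 in sham-operated rats. Stimulated replicate 3 reached the range of the controls, and the other 4 stimulated rats lay below it. The change was -0.09 (SE 0.04, interval -0.17 to -0.0029), with an adjusted p of 0.252 in limma. At 30 d the values were 9.67, 9.67, 9.68, 9.62 and 9.65 in stimulated rats, against 9.69, 9.76, 9.71, 9.65 and 9.72 in sham-operated rats. The groups overlapped, and the change of -0.05 (interval -0.13 to 0.04) had an adjusted p of 0.755.

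Ntrk3, the receptor for NT-3 (probe set 10722864), had log2 intensities of 9.38, 9.28, 9.40, 9.33 and 9.27 in stimulated rats at 7 d, against 9.48, 9.51, 9.21, 9.47 and 9.46 in sham-operated rats. Sham-operated replicate 3 was the lowest rat of both groups, and the other 4 controls lay above every stimulated rat. The change was -0.10 (SE 0.05, interval -0.20 to 0.01, adjusted p = 0.341 in limma), and without that control it was -0.15 (adjusted p = 0.037), which is past the threshold. That control also had the highest Wfs1 of its group, 7.79, and the lowest summed granule cell markers, 4414.

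At 30 d Ntrk3 had log2 intensities of 9.39, 9.35, 9.37, 9.39 and 9.30 in stimulated rats, against 9.48, 9.49, 9.46, 9.42 and 9.42 in sham-operated rats. All 5 stimulated rats lay below all 5 controls. The change was -0.09 (SE 0.05, interval -0.20 to 0.01), with an adjusted p of 0.528 in limma. The SD was 0.04 in stimulated rats and 0.03 in sham-operated rats. The change at 30 d minus that at 7 d was 0.0016 (interval -0.15 to 0.16).

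Ngfr, the p75 receptor, which binds all neurotrophins and their precursors (probe set 10746538), lay closest to the background of 3.69. It had log2 intensities of 4.32, 4.38, 4.43, 4.38 and 4.31 in stimulated rats at 7 d, against 4.52, 4.29, 4.54, 4.14 and 4.48 in sham-operated rats. At 30 d it had 4.40, 4.49, 4.19, 4.19 and 4.40 in stimulated rats, against 4.40, 4.35, 4.43, 4.40 and 4.27 in sham-operated rats. The groups overlapped throughout, with changes of -0.03 at 7 d (interval -0.18 to 0.12, adjusted p = 0.879 in limma) and -0.04 at 30 d (interval -0.19 to 0.12, adjusted p = 0.922). The 7 d controls were the most spread (SD 0.17).

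Sort1, sortilin, which binds the neurotrophin precursors beside p75 and sorts BDNF inside the cell (probe set 10818326), had log2 intensities of 10.10, 9.82, 9.96, 9.76 and 9.71 in stimulated rats at 7 d, against 10.03, 10.14, 9.78, 10.09 and 9.98 in sham-operated rats. At 30 d it had 10.13, 10.03, 10.08, 10.04 and 10.24 in stimulated rats, against 10.10, 10.08, 10.13, 10.11 and 10.16 in sham-operated rats. At 7 d stimulated rats reached lower values than any control, and at 30 d the groups lay in the same range. The change was -0.14 at 7 d (SE 0.07, interval -0.29 to 0.01, adjusted p = 0.311 in limma) and -0.011 at 30 d (interval -0.16 to 0.14, adjusted p = 0.98).

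The design also held the 2 times within each treatment. Between stimulated rats at 30 d and at 7 d, Sort1 was the member that differed, by 0.24 (SE 0.07, interval 0.09 to 0.38, adjusted p = 0.0332 in limma), 1 of 6 members where 13.5% of all probe sets passed. This call was lost in 14 of 35 alternatives, among them leaving out stimulated replicate 2 (0.225), 4 (0.209) or 5 (0.196) at 7 d or stimulated replicate 1 (0.230), 3 (0.243) or 5 (0.203) at 30 d. Ntrk2 had 0.08 (interval -0.00034 to 0.17, adjusted p = 0.166), and with array medians centred it passed (0.118, adjusted p = 0.0499). The other 4 members had changes between -0.04 and 0.03, with adjusted p of 0.743 or more.

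Between sham-operated rats at 30 d and at 7 d, 0 of 6 members and 0 of all probe sets passed in limma (0% of 15800), although 13.3% of all probe sets had an unadjusted p under 0.05. The largest member differences were 0.19 for Ntf3 (adjusted p = 0.752) and 0.11 for Sort1 (adjusted p = 0.502). For the difference between the changes at 30 d and 7 d, again 0 of 6 members and 0% of probe sets passed in limma, and 4.32% had an unadjusted p under 0.05, none of them a member. Sort1 had 0.13 (interval -0.08 to 0.34) in that comparison. The times were separate rats, so these are differences between groups of rats and not courses within a rat.

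It was then asked whether ligands and receptors varied together among rats of 1 group. For 15 pairs of members, deviations from the group means were correlated over the 20 rats, with 100000 permutations of rats within groups and adjustment over the 15 pairs. The only pair past the threshold was Ntf3 and its receptor Ntrk3 (Pearson r = 0.543, permutation p = 0.00245, adjusted p = 0.0367), where the Spearman value did not pass (rho = 0.574, permutation p = 0.00416, adjusted p = 0.0624). It was 0.535 without the 2 rats farthest from the median of Ntf3 and 0.622 without sham-operated replicate 3 at 7 d. Ntrk3 also ran with the summed granule cell markers (r = 0.497), as Ntf3 did.

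Ntrk3 and Sort1 had r = 0.633 (permutation p = 0.0273, adjusted p = 0.205) and rho = 0.549 (permutation p = 0.0282, adjusted p = 0.211). It depended on which rats were included, since r was 0.322 without the 2 farthest, 0.386 without sham-operated replicate 3 at 7 d and 0.747 without both stimulated replicates 5. Bdnf and its receptor Ntrk2 had r = -0.0902 (permutation p = 0.703, adjusted p = 0.703) and rho = -0.316 (permutation p = 0.184, adjusted p = 0.489). Of the 15 pairs 8 had a positive r, and the lowest was -0.311, for Ntrk3 and Ngfr. In sham-operated rats, 36.9% of the variance of all deviations lay on a single axis, and the part of that shared variation in these pairs was not tested.

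**Figure D4:**
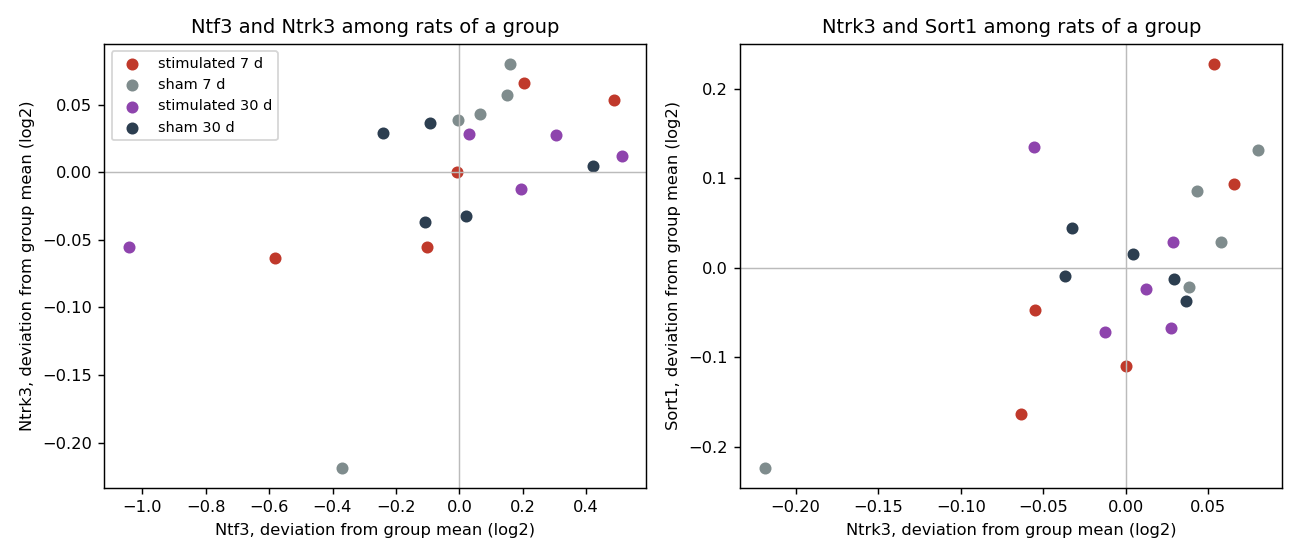
Deviations from the group mean (log2) of Ntf3 and Ntrk3 (left) and of Ntrk3 and Sort1 (right), 1 point per rat, coloured by group with each stimulated group listed before its control. In both panels sham-operated replicate 3 at 7 d is the lowest Ntrk3 point; the Pearson r is 0.543 on the left and 0.633 on the right.

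Genes whose values ran most closely with each member were found over all probe sets tested, as a description over 20 arrays. For Bdnf they were Plk2 (r = 0.901, rho = 0.926), Mdm1 (r = 0.84) and Acvr1c (r = 0.84), and for deviations from the group means Plk2 (r = 0.846), Atp6ap2 (r = 0.785) and Rad54l (r = 0.782). Plk2 was thus first by both measures. For Ntf3 they were Thsd7a (r = 0.917), Fam38b (r = 0.901) and Vangl2 (r = 0.893), and for deviations Svep1 (r = 0.907), Vangl2 (r = 0.899) and Thsd7a (r = 0.88). Here 2 of the 3 genes were shared by both measures.

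For Ntrk2 they were Gatad1 (r = 0.875), Klf12 (r = 0.875) and Zfp90 (r = 0.866), and for deviations Tulp3 (r = 0.857), Mir29c (r = 0.841) and Zbtb38 (r = 0.822). For Ntrk3 they were Sidt1 (r = 0.853), Matcap2 (r = 0.849) and Tmem150c (r = 0.836), and for deviations Ndufb9 (r = 0.862), Slc11a2 (r = 0.847) and Eif2ak1 (r = 0.846). Neither receptor shared a gene between its lists. For Ngfr they were Tulp1 (r = 0.802), Pax3 (r = 0.8) and Prap1 (r = 0.799), and for deviations RT1-CE4 (r = 0.869), Cand2 (r = 0.861) and Esrrb (r = 0.858). For Sort1 they were Uri1 (r = 0.966), Riok2 (r = 0.964) and Trim33 (r = 0.963), and for deviations Fam171b (r = 0.95), Uri1 (r = 0.946) and Tspan12 (r = 0.944). The values of Sort1 were the closest of any member, and no member was among these genes of another.

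The rest of the pathway was read from lists of 173 genes, of which 147 were tested. At 7 d 11 were higher and 7 lower in stimulated rats, 12.2% of those tested against 6.48% of all probe sets, with a median change of 0.0133 over the lists and 0.00182 over all probe sets. At 30 d 2 were higher and 4 lower, 4.08% of those tested against 1.73% of all probe sets, with a median of -0.0063 over the lists and -0.0064 over all probe sets. The lists were chosen with earlier results of these data known, so a higher share over them is no evidence about the pathway. Each listed gene was read at its probe set with the highest mean, whereas the shares over the array count every probe set tested. The counts of each list stand against the same shares of all probe sets. With few genes called in a list, nothing is read from a list's share alone. Single rats moved the counts over all lists, and those over all probe sets as well. Higher calls at 7 d were 7 without sham-operated replicate 5 or stimulated replicate 3 of that time, and lower calls were 4 without sham-operated replicate 2 and 11 without stimulated replicate 1. At 30 d lower calls were 2 without sham-operated replicate 1, 2, 3 or 5, and higher calls were 5 without stimulated replicate 4, 4 without stimulated replicate 4 of 7 d and 5 without stimulated replicate 5 of 7 d. Over all probe sets 635 were higher and 389 lower at 7 d. Without stimulated replicate 1 of 7 d these were 733 and 524, and without sham-operated replicate 2 of 7 d 507 and 290. At 30 d 132 were higher and 142 lower, and 78 and 69 without sham-operated replicate 2 of 30 d.

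Ntf4, which encodes another ligand of TrkB, had a change of -0.06 at 7 d (adjusted p = 0.772 in limma) and -0.13 at 30 d (adjusted p = 0.599). Its values were low, with group means of 4.15 in stimulated rats at 7 d, against 4.21 in sham-operated rats, and 4.11 in stimulated rats at 30 d, against 4.24 in sham-operated rats. Of the 16 ligands and receptors of the GDNF and CNTF families, a group of neighbouring neurotrophic factors, 0 passed at 7 d or 30 d in limma. At an unadjusted p under 0.05 there were 2 at 7 d and 3 at 30 d. Over all probe sets 6.48% and 1.73% passed, and 18.4% and 11.4% had an unadjusted p under 0.05.

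All 4 relatives of sortilin were measured. Sorl1, a sorting receptor of the same family, fell at 7 d by 0.26 (SE 0.06, adjusted p = 0.0154 in limma), with means of 8.91 in stimulated rats and 9.17 in sham-operated rats and no overlap. At 30 d its change was -0.11 (adjusted p = 0.578). Sorcs3, another member of the family, had log2 intensities of 6.97, 6.93, 6.93, 7.04 and 6.94 in stimulated rats at 30 d, against 7.29, 7.29, 7.53, 7.55 and 7.44 in sham-operated rats. The groups stood well apart, and the fall of 0.46 (SE 0.09, adjusted p = 0.0081) was 0.73-fold. At 7 d Sorcs3 had a change of -0.03 (adjusted p = 0.907), but the difference between the changes, -0.43 (unadjusted p = 0.00267 in limma, rank 28 of all probe sets), had an adjusted p of 1. Sorcs1 and Sorcs2 did not pass at either time. So 1 of 4 relatives passed at each time, beside 6.48% of all probe sets at 7 d and 1.73% at 30 d.

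Enzymes that process the precursors or carry them to release gave 2 higher and 0 lower of 18 tested at 7 d, and 0 called at 30 d (5 of 18 at an unadjusted p under 0.05). The shares of all probe sets called were 6.48% at 7 d and 1.73% at 30 d, with 11.4% at an unadjusted p under 0.05 at 30 d. Mmp9, a matrix metalloproteinase able to cleave proBDNF, had log2 intensities of 6.14, 6.50, 5.72, 5.59 and 5.65 in stimulated rats at 7 d, against 4.53, 4.41, 4.25, 4.19 and 4.42 in sham-operated rats. It rose 2.95-fold (1.56, SE 0.22, adjusted p = 0.0002 in limma), the largest change among the pathway genes named. At 30 d stimulated rats ranged between 4.43 and 6.03, against 4.15 to 4.62 in sham-operated rats, a change of 0.85 (adjusted p = 0.0525). Plau, the urokinase that activates plasminogen, rose by 0.56 at 7 d (adjusted p = 0.00151) and had 0.23 at 30 d (adjusted p = 0.352). Its 7 d controls were low as well, with a mean of 4.53.

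Of 35 adaptors and signalling enzymes downstream of Trk receptors, 1 was higher and 2 were lower at 7 d. At 30 d 0 were higher and 2 lower. Of all probe sets 6.48% passed at 7 d and 1.73% at 30 d, and nothing is read from this list's share. Shc3, an adaptor of neurons that binds activated Trk receptors, ranged between 8.353 and 8.774 in stimulated rats at 7 d, against 8.776 to 9.188 in sham-operated rats, so the groups touched but did not overlap. It fell by 0.39 at 7 d (adjusted p = 0.0133 in limma) and by 0.37 at 30 d (adjusted p = 0.0458), with overlap at 30 d. Camk4, a calcium-dependent kinase that phosphorylates CREB, fell by 0.31 at 7 d (adjusted p = 0.0231, overlapping groups) and by 0.33 at 30 d (adjusted p = 0.0357, no overlap). Grb2, the adaptor that links receptors to Ras, rose by 0.28 at 7 d (adjusted p = 0.00198) and had 0.12 at 30 d (adjusted p = 0.405).

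Of 19 genes of Trk turnover and feedback, 2 were lower at 7 d and 0 passed at 30 d (2 at an unadjusted p under 0.05). Spred1, an inhibitor of the Ras and ERK pathway, fell by 0.38 at 7 d (adjusted p = 0.0115 in limma), and Cblb, a ubiquitin ligase of receptor tyrosine kinases, fell by 0.17 (adjusted p = 0.0455). Of 13 co-receptors and partners of p75, 0 passed at either time, with 3 at an unadjusted p under 0.05 at 7 d and 1 at 30 d, all higher. Ngfr itself did not pass either. Of all probe sets 6.48% passed at 7 d and 1.73% at 30 d, and 18.4% and 11.4% had an unadjusted p under 0.05. With 13 genes, 0 calls is near these shares, and nothing is read from it.

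Of 20 genes listed as regulators of Bdnf transcription, 3 were higher at 7 d, when 6.48% of all probe sets passed. At 30 d 0 passed (1 at an unadjusted p under 0.05), beside 1.73% of all probe sets. All 3 that rose at 7 d are known as transcriptional repressors. Bhlhe41, a repressor that binds E-boxes, had log2 intensities of 8.10, 8.19, 8.18, 8.22 and 8.58 in stimulated rats at 7 d, against 7.55, 7.60, 7.58, 7.60 and 7.52 in sham-operated rats. It rose by 0.68 (SE 0.10, adjusted p = 0.000386 in limma) and had 0.36 at 30 d (adjusted p = 0.0892). Ezh2, the methyltransferase of Polycomb complex PRC2, rose by 0.31 at 7 d (adjusted p = 0.00805) and had 0.14 at 30 d (adjusted p = 0.45). Its controls at 30 d lay above those at 7 d without overlap (0.20, adjusted p = 0.341). Its stimulated means were 5.784 at 7 d and 5.817 at 30 d. Rest, the repressor of neuronal genes, rose by 0.24 at 7 d (adjusted p = 0.0325), with overlapping groups, and had 0.05 at 30 d (adjusted p = 0.878). Bdnf rose in the comparison at 7 d as well.

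Of 21 genes that respond to activity or BDNF, 5 were higher and 2 lower at 7 d, and 2 were higher and 1 lower at 30 d, so the list moved both ways. Among all probe sets 6.48% passed at 7 d and 1.73% at 30 d. Nr4a3, a nuclear receptor of the immediate early class, had log2 intensities between 7.17 and 7.61 in stimulated rats at 7 d, against 7.97 to 8.16 in sham-operated rats. It fell at 7 d (log2 change -0.62, adjusted p = 0.000202 in limma). It also fell at 30 d (log2 change -0.47, adjusted p = 0.00675), and the groups overlapped at neither time. Arc, which encodes a synaptic protein of activated neurons, fell by 0.56 at 7 d (adjusted p = 0.0225) and had -0.25 at 30 d (adjusted p = 0.556).

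Nptx2, a pentraxin that gathers AMPA receptors at synapses, had log2 intensities of 8.02, 8.28, 8.12, 8.16 and 8.28 in stimulated rats at 7 d, against 7.43, 7.75, 7.52, 7.31 and 7.30 in sham-operated rats. It rose by 0.71 at 7 d (adjusted p = 0.000103 in limma) and by 0.49 at 30 d (adjusted p = 0.0081), and all stimulated rats lay above their controls at both times. Ptgs2, the inducible cyclooxygenase, rose by 0.61 at 7 d (adjusted p = 0.008 in limma) and, likewise without overlap, by 0.67 at 30 d (adjusted p = 0.0124). For none of these genes did the change differ between the times after adjustment (adjusted p = 1).

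**Figure D5:**
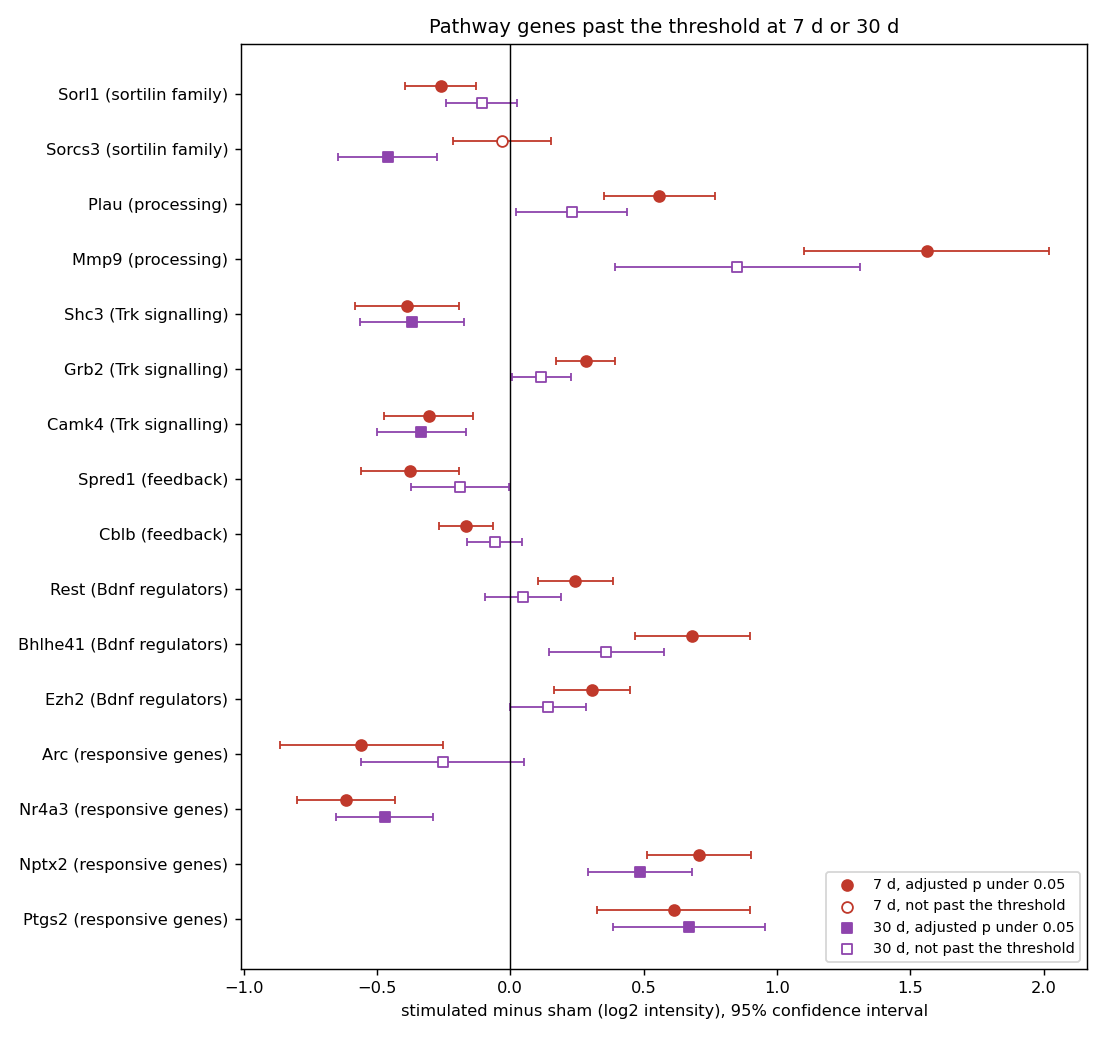
Change in log2 intensity, stimulated minus sham-operated rats, of 16 pathway genes past the threshold at 7 d or 30 d, with 95% confidence intervals from limma; circles are 7 d, squares 30 d, and filled symbols passed an adjusted p of 0.05. Mmp9 at 7 d lies farthest right at 1.56, and Shc3, Camk4, Nr4a3, Nptx2 and Ptgs2 are filled at both times.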

How the data were processed

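Affymetrix Rat Gene 1.1 ST arrays were hybridised with RNA of the left dentate gyrus, 1 array per rat. The deposited log2 intensities were made by the authors with RMA (oligo 1.22.0), which corrects background, quantile normalizes and summarises probe sets. Groups were taken from the treatment and time given in the labels. The number of arrays (5 per group) limits the precision, and no scan or extraction batch was analysed. Of 29214 probe sets, 18644 carried 1 gene symbol. As background, a log2 intensity of 3.69 (the 20th percentile over the table) was used in place of the antigenomic median of the methods. Lower values were set to this background, and a probe set that reached it or less on over 5 arrays was dropped, which kept 15800. Differences were fitted with limma 3.58.1 (lmFit, eBayes, R 4.3.3) in 1 model of the 4 groups, in place of the methods' analysis of variance, with Benjamini-Hochberg adjustment over all 15800. The fit was tested on simulated data. Members and gene lists were chosen with earlier results of these data known. From each pathway list the genes past the threshold were named, at most the 4 with the smallest p at each time, and for each member the 3 most similar probe sets by each measure. Alternatives covered the filter, floor, normalization, moderation, weights, covariates, replicate block and arrays left out, of which the granule cell covariate and the removal of both stimulated replicates 5 were chosen after seeing the data.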

Additional observations from a re-analysis of the deposited data

Results flagged for a closer look

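Of 92 groups of 5 rats examined (23 genes in 4 groups), 9 held a rat whose gap to the next rat was over 0.71 of the range of the group, and chance flags about 1 in 20 groups. Among the members these were Bdnf in stimulated replicate 2 at 7 d (6.650, next 6.432) and Ntrk3 in sham-operated replicate 3 at 7 d (9.209, next 9.465). The others were Arc in stimulated replicate 2 at 30 d (7.261) and in sham-operated replicate 5 at 30 d (6.959), Bhlhe41 in stimulated replicate 5 at 7 d (8.581) and in sham-operated replicate 3 at 30 d (7.870), Ptgs2 in stimulated replicate 5 at 7 d (9.171), and Ntf4 in sham-operated replicate 4 at 7 d (3.949) and sham-operated replicate 5 at 30 d (4.006).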

How the results depend on the processing

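Of 432 values (the changes of the 6 members, stimulated minus sham-operated rats, under each alternative), 420 kept their direction and their side of the threshold. Where a value differed, the cause was not tested. Bdnf at 30 d passed with array weights (0.21, adjusted p = 0.0444 in limma), and Bdnf at 7 d missed the threshold only with the granule cell covariate (0.322, adjusted p = 0.0749), with a range of 0.000572 to 0.0749 over the alternatives. That covariate turned Ntf3 at 7 d (0.181) and Sort1 at 30 d (0.0413), and left 5 pathway genes higher and 3 lower at 7 d and 0 higher and 1 lower at 30 d. Calls over all probe sets fell as well. They were 148 higher and 71 lower at 7 d, against 635 and 389 without the covariate. At 30 d they were 38 higher and 29 lower, against 132 and 142. The main axis of the sham-operated rats as a covariate turned Sort1 at 30 d (0.000307) and gave 4 higher pathway genes at 30 d. At 30 d there were also 2 lower without a filter, 4 higher after quantile normalization, 6 higher with array weights, and 1 higher and 2 lower without moderation. Over all probe sets at 30 d, 200 were higher and 204 lower with the main axis. There were 77 and 86 without a filter, 134 and 138 after quantile normalization, 370 and 394 with array weights, and 68 and 82 without moderation.

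With single rats left out, the change at 7 d was 0.278 to 0.356 for Bdnf, -0.56 to -0.293 for Ntf3, -0.106 to -0.0602 for Ntrk2, -0.15 to -0.0758 for Ntrk3, -0.0942 to 0.00459 for Ngfr and -0.195 to -0.0969 for Sort1. At 30 d it was 0.159 to 0.242 for Bdnf, -0.741 to -0.353 for Ntf3, -0.0617 to -0.0335 for Ntrk2, -0.103 to -0.0803 for Ntrk3, -0.0751 to 0.00021 for Ngfr and -0.0445 to 0.00694 for Sort1. Pathway genes numbered 7 to 13 higher and 4 to 11 lower at 7 d, and 2 to 5 higher and 2 to 5 lower at 30 d. Calls over all probe sets varied with the rat left out as well.

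Values near 0 turned sign without a call. For the change at 30 d minus that at 7 d, Ngfr was 0.0233 with array medians centred, 0.0207 after quantile normalization, 0.0327 with array weights, 0.0166 without the 3 arrays of highest Wfs1, 0.0224 with the main axis and 0.00345 with the granule cell covariate. Ntrk3 was -0.0303 after quantile normalization, -0.0132 without the 2 arrays least like their group, -0.0153 with the main axis, -0.00576 with the granule cell covariate and -0.000463 without both stimulated replicates 5. Ntf3 was 0.0229 with array weights and 0.0479 without the arrays of highest Wfs1. With single rats left out it was -0.321 to 0.0852 for Ntf3, -0.0184 to 0.0562 for Ntrk3 and -0.0439 to 0.0581 for Ngfr. Between stimulated rats at 30 d and 7 d, Ngfr was 0.00405 with medians centred, Ntrk3 -0.0306 after quantile normalization, and Ntf3 -0.131 without the 2 arrays least like their group, -0.0532 with the main axis and -0.212 with the granule cell covariate. With single rats left out these were -0.0889 to 0.00684 for Bdnf, -0.131 to 0.275 for Ntf3 and -0.0683 to 0.007 for Ngfr. Between sham-operated rats Ntrk3 was -0.000255 after quantile normalization, and with single rats left out -0.028 to 0.0465 for Ntrk3 and -0.0874 to 0.0114 for Ngfr.

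The labels do not say whether the replicate numbers pair the rats. Correlations of the deviations of same-numbered rats ran from -0.489 to 0.153. The same-numbered control was the closest for stimulated replicates 2 and 5 at 30 d and for no rat at 7 d. This does not settle whether rats were paired. With the replicate number as a block, Bdnf had 0.325 at 7 d (adjusted p = 0.0164) and 0.208 at 30 d (adjusted p = 0.23), no member's call changed, and all-gene calls were 525 higher and 281 lower at 7 d and 91 higher and 92 lower at 30 d. Without the block they were 635 higher and 389 lower at 7 d and 132 higher and 142 lower at 30 d, and with array medians centred 503 higher and 576 lower at 7 d. No depth applies to arrays. Over all 4 groups Ngfr and Ntf4 lay nearest the background among the genes named. In sham-operated rats Mmp9 (means 4.36 at 7 d and 4.40 at 30 d) lay about as low as Ngfr (4.39 and 4.37). Plau lay slightly higher there (4.526 and 4.455).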
